A study of Mus musculus with 8 samples.

Results

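The 8 genes described here encode secreted defence proteins of the gut: the REG family lectins Reg1, Reg3a, Reg3b, Reg3g and Reg4, the lysozymes Lyz1 and Lyz2, and the ribonuclease angiogenin 4 (Ang4). They were taken by symbol from the deposited table of 18262 genes, and all 8 were found. The table holds TPM (a relative level in which reads are divided by transcript length and by the library total) for 8 libraries of wild-type (WT) mouse colon. The DSS group held 4 libraries of mice given dextran sulfate sodium (DSS), which damages the lining of the colon and causes colitis. The DSS + GAA group held 4 libraries of mice given DSS and ganoderic acid A (GAA), a triterpenoid of Ganoderma fungi, at 20 mg/kg. Both groups were thus given DSS, and tissue without DSS was not analysed here. No measure of colitis in these mice was used here. The treatment labels of the 4 GAA libraries read 20, 21, 22 and 23 mg/kg, whereas their titles and the design text give 20. Strain, sex, age, and the days and concentration of DSS are not given in the sources used here. Whether the libraries came from separate animals is not stated in the labels, so a p-value here measures only the spread between these libraries, which may be technical. Whole colon was used, so fewer cells of a type and less RNA per cell cannot be told apart.

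REG proteins are small secreted proteins with a C-type lectin fold. REG3B and REG3G are made by enterocytes and other epithelial cells after contact with bacteria, downstream of the cytokine IL-22 and the transcription factor STAT3, and REG3G binds peptidoglycan of Gram-positive bacteria and helps to hold them away from the mucosa. REG4 marks deep crypt secretory cells of the colon, and REG1 is abundant in exocrine pancreas and in regenerating gut. Lysozyme cuts peptidoglycan: Lyz1 is known as the form of Paneth cells, granular secretory cells of the small intestine, and Lyz2 as the form of macrophages and other myeloid cells. Angiogenin 4 is a bactericidal ribonuclease of Paneth and goblet cells.

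The genes lie in a few clusters of near relatives, and this sets how cleanly reads can be assigned. On GRCm38 (mm10; GENCODE vM21) 6 protein-coding REG genes stood within 98.2 kb of chromosome 6, in the order Reg3b, Reg3d, Reg3a, Reg2, Reg1 and Reg3g. Reg3b covered chr6:78370657-78373466 on the plus strand and Reg3g chr6:78466269-78468872 on the minus strand, each with 6 exons. Reg3a covered chr6:78380709-78383827 and Reg1 chr6:78422711-78428667, both on the plus strand, and Reg4 stood apart at chr3:98222156-98236748. The lysozymes were neighbours on the minus strand of chromosome 10, Lyz2 at chr10:117277331-117282321 and Lyz1 at chr10:117287797-117292868, with 5475 bases between them. Ang4 covered chr14:51763878-51773590 on the minus strand, in 2 exons.

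The lysozyme pair was the most alike of the 13 pairs of family members aligned. Over 444 coding bases Lyz1 and Lyz2 were 95.1% identical, and 195 of the 1214 windows of 50 bases in the Lyz1 transcript (16.1%) were found letter for letter in Lyz2. The longest shared run, coding bases 276 to 393 in exons 2 to 4 of both genes, is shown because a read inside it fits either gene (spliced sequence, 5′ to 3′; none of it is in capitals).
Lyz1 and Lyz2 shared run: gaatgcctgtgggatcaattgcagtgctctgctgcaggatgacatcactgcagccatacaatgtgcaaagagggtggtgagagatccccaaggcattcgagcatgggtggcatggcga
The sources used here do not give how reads that fit both genes were counted, so the low Lyz1 values are uncertain. Reg3b and Reg3g were 76.0% identical over the aligned coding bases and shared 0 windows of 50 bases. Their longest shared run, 35 coding bases of exon 2 (chr6:78371230-78371264 in Reg3b and chr6:78468503-78468537 in Reg3g), is shown for contrast.
Reg3b and Reg3g shared run: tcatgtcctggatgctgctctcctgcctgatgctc
Ang4 was 84.8% identical to Ang and 88.1% identical to Ang5, which has no row in the table. Ang5 held 4.55% of the 50-base windows of the Ang4 transcript.

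Because Reg3b and Reg3g are known as a co-induced pair, their start regions are shown, as the 150 bases before the RefSeq start (GRCm38.p6), each read in the direction of its gene. Capitals mark the letters TTCNNNGAA, a STAT-type motif, and TATAAA, a core promoter element. The Reg3b stretch is chr6:78370735-78370884 on the plus strand and the Reg3g stretch is chr6:78468875-78469024 on the minus strand.
Reg3b: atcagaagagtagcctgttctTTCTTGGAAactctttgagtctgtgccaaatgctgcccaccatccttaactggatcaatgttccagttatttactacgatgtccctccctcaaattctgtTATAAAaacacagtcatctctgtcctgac
Reg3g: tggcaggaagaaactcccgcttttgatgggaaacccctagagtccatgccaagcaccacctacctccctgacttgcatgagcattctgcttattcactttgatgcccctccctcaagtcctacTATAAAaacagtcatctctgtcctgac
Over 250 bases before the start the pair was 68.4% identical, and both held TATAAA, 29 to 24 bases before the start in Reg3b and 27 to 22 in Reg3g. Reg1 was the other REG gene with TATAAA in this window, and 12.4% of the 32851 RefSeq promoters held these letters on either strand. The outcome depends on the RefSeq start, which for Reg3b and Reg1 lies inside the gene span given above. Letters missing from a window may thus stand just outside it. The TTCNNNGAA letters, present in 7.02% of promoters, were found in Reg3b, 129 to 121 bases before the start, and in Ang4, 192 to 184 bases before it. The AP-1 letters TGANTCA (6.75% of promoters) were found in Reg1 and Ang4, the PU.1 letters GAGGAA (23.3%) in Ang4, and the E-box letters CANNTG (66.2%) in all 8. These are matches of letters on both strands, not shown binding sites.

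Of the 8 genes, none of those tested was called different between the groups, which does not show that their levels were equal. The 6 that reached 1 TPM in 4 or more libraries (Reg3b, Reg3g, Reg4, Lyz1, Lyz2 and Ang4) were tested, and 0 were higher and 0 lower at an adjusted p under 0.05 (limma on log2(TPM + 1), Benjamini-Hochberg over 14217 genes). At an unadjusted p under 0.05 the count was also 0. Over all tested genes 34.1% were called, 5.96% higher and 28.2% lower in DSS + GAA, and 32.9% had groups that did not overlap, against 0 of these 6. The groups of Reg1 and Reg3a, which were not tested, overlapped as well. The median log2 fold change of the 6 tested genes was 0.11, and that of all tested genes was -0.25. Scaling between libraries moved the latter by 0.25 (trimmed mean), 0.27 (quantile) or 0.30 (median centring), and with it the balance of calls, from 847 higher and 4006 lower genes to 1890 higher and 1648 lower under trimmed mean scaling. No call among the 6 genes was gained under these scalings. Their within-group SD lay at the 97.7th percentile of all tested genes or above, so only large differences could have been called. Ang4 passed when DSS replicate 5 was left out (limma adjusted p = 0.0381).

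**Figure D1:**
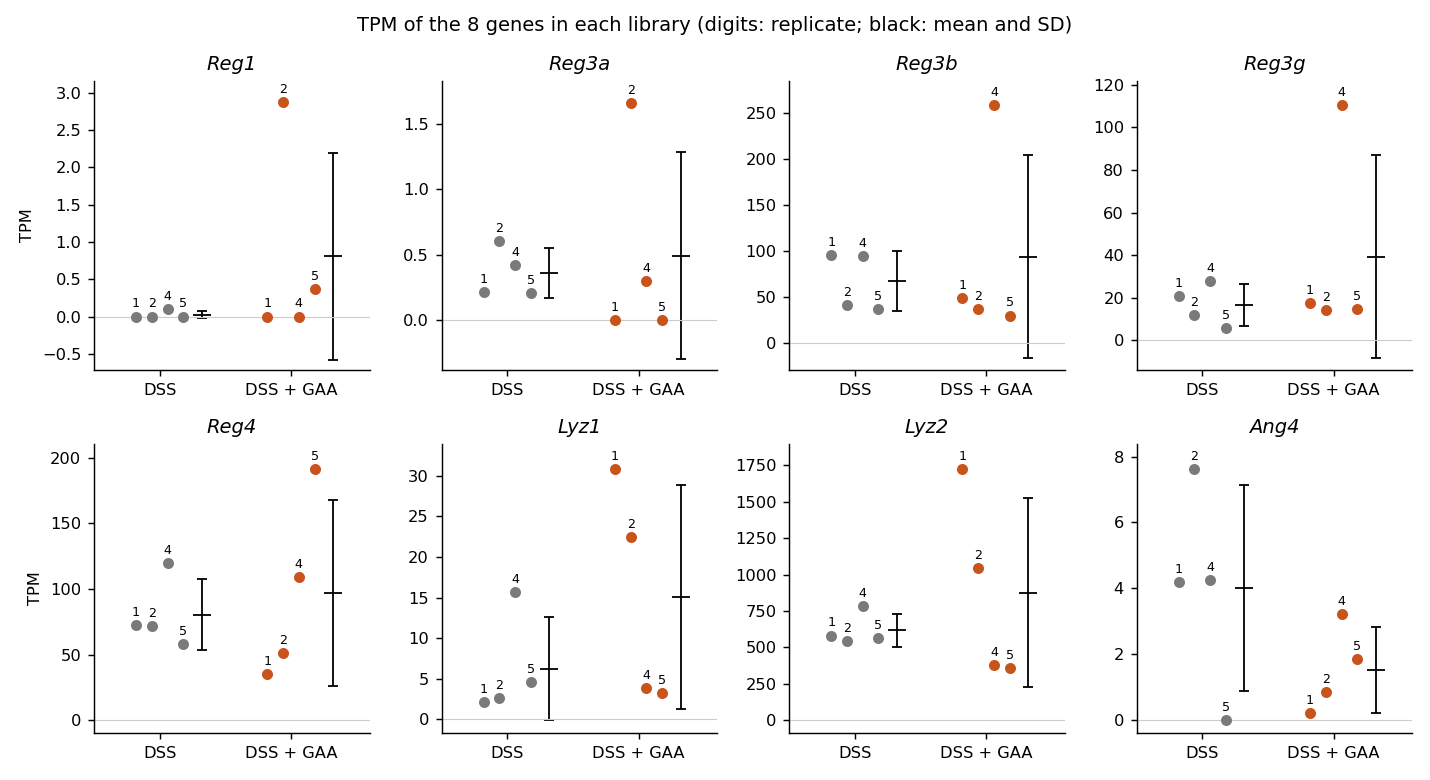
TPM (y axis, linear, a separate scale for each gene) of the 8 genes in the 4 DSS (grey) and 4 DSS + GAA (orange) libraries, with the replicate number beside each point and the mean and SD in black. The groups overlap in every panel, and a single DSS + GAA library stands far above the others for Reg1 (replicate 2, 2.87), Reg3b and Reg3g (replicate 4, 258.8 and 110.7).

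Per transcript length, Lyz2 was the most abundant of the 8 genes in every library and ranged from 357 to 1726 TPM. In the DSS group Reg4 (57.9 to 119.6) and Reg3b (36.2 to 95.5) came next and overlapped. Reg3g (5.85 to 28.1) lay below every Reg3b value, and its range overlapped those of Lyz1 (2.14 to 15.7) and Ang4 (0 to 7.63). Reg3a (0.202 to 0.605) and Reg1 (0 to 0.095) were under 1 TPM in all DSS libraries. The sum of the 5 REG genes ran from 100.1 to 242.9 TPM in DSS libraries and from 101.3 to 478.9 TPM in DSS + GAA. Lyz2 made up 97.9% to 99.6% of the lysozyme TPM in each library.

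Reg3b, the more abundant of the antibacterial REG3 lectins measured, did not differ detectably between the groups. It stood at 95.5, 41.0, 94.8 and 36.2 TPM in DSS replicates 1, 2, 4 and 5, and at 48.6, 36.8, 258.8 and 29.5 TPM in DSS + GAA replicates 1, 2, 4 and 5. The high value of DSS + GAA replicate 4 lay above every DSS library, while the other 3 DSS + GAA libraries lay within or below the DSS range. The means were 66.8 ± 32.7 and 93.5 ± 110.5 TPM (SD, n = 4 per group), and the log2 fold change was 0.01 ± 0.65 (SE), with a 95% interval from -1.45 to 1.47 (limma adjusted p = 0.991). Without DSS + GAA replicate 4 the fold change was -0.68 (limma adjusted p = 0.207).

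Reg3g, the lectin of Gram-positive bacteria, followed Reg3b closely from library to library. Its values were 20.9, 11.9, 28.1 and 5.85 TPM in the DSS libraries and 17.5, 14.1, 110.7 and 14.6 TPM in the DSS + GAA libraries. DSS + GAA replicate 4 was again the highest of the 8, and the other 3 lay inside the DSS range. Group means were 16.7 ± 9.82 and 39.2 ± 47.7 TPM (SD, n = 4 per group). The log2 fold change of 0.78 ± 0.68 (SE; 95% interval -0.75 to 2.31) did not pass (limma adjusted p = 0.397), and it was 0.08 without DSS + GAA replicate 4. The two-sided exact permutation p over the 70 assignments of libraries was 0.486 for Reg3g and 0.971 for Reg3b, where the smallest p possible is 0.0286.

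Reg3b and Reg3g were the nearest of the 6 tested genes in profile. The root mean square difference of their log2(TPM + 1) profiles over the 8 libraries, each centred on its mean, was 0.46, against their own spreads of 0.97 and 1.09. Outside the 8 genes the nearest profile to both was that of Slfn9, a member of the Schlafen family, at 0.64 from Reg3b and 0.67 from Reg3g. Slfn9 was also highest in DSS + GAA replicate 4, at 28.6 TPM against 7.90 to 16.6 in the other 7 libraries. The runners-up were Inf2, an actin-regulating formin, for Reg3b (0.65) and Ankle1, an endonuclease, for Reg3g (0.70). A small distance over 8 libraries is a description of these libraries alone.

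**Figure D2:**
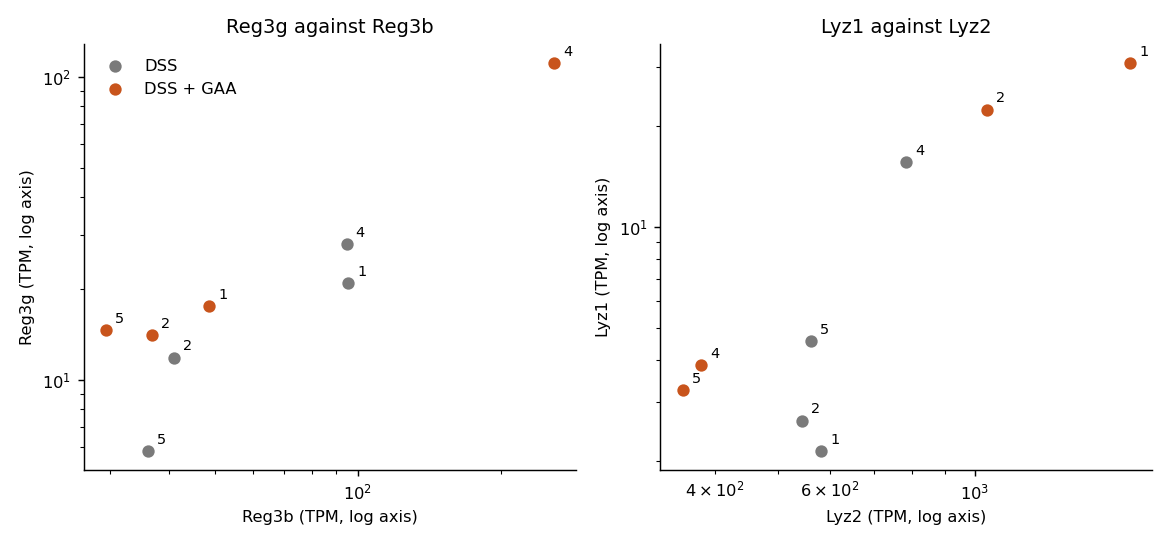
Left, Reg3g against Reg3b, and right, Lyz1 against Lyz2, in TPM on log axes for the 8 libraries (grey, DSS; orange, DSS + GAA; digits, replicate). Reg3g and Reg3b peak in DSS + GAA replicate 4, while Lyz1 and Lyz2 peak in DSS + GAA replicates 1 and 2.

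Reg4, the lectin of deep crypt secretory cells, stood at 72.4, 71.9, 119.6 and 57.9 TPM in DSS and at 35.2, 51.6, 109.1 and 191.6 TPM in DSS + GAA. DSS + GAA replicates 1 and 2 lay below every DSS library and replicate 5 above, so the groups overlapped with a wider range in DSS + GAA. The means were 80.4 ± 26.9 and 96.9 ± 70.7 TPM (SD, n = 4 per group). The log2 fold change was 0.02 ± 0.48 (SE; 95% interval -1.05 to 1.097; limma adjusted p = 0.976). The nearest profiles were those of Cyp39a1, an oxysterol hydroxylase (0.26), and Ociad2 (0.26), against 1.08 for Reg3b and for Reg3g.

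Lyz2, the myeloid lysozyme, was both higher and lower in DSS + GAA libraries than in any DSS library. It stood at 582.2, 545, 786 and 562 TPM in DSS and at 1726, 1044, 381 and 357 TPM in DSS + GAA. DSS + GAA replicates 1 and 2 lay above all 4 DSS libraries and replicates 4 and 5 below them, with none in between. The means were 619 ± 112 and 877 ± 650 TPM (SD, n = 4 per group), and the log2 fold change was 0.20 ± 0.47 (SE; 95% interval -0.86 to 1.26; limma adjusted p = 0.761; exact permutation p = 0.8). Without DSS + GAA replicate 1 the fold change was -0.23 (limma adjusted p = 0.634).

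Lyz1, the Paneth lysozyme, was low and showed the same order of DSS + GAA libraries. It stood at 2.14, 2.63, 15.7 and 4.56 TPM in DSS and at 30.9, 22.4, 3.87 and 3.26 TPM in DSS + GAA. The highest DSS value, that of replicate 4, fell on the library that was also highest for Lyz2 in its group. The means were 6.25 ± 6.36 and 15.1 ± 13.8 TPM (SD, n = 4 per group), and the log2 fold change was 0.97 ± 0.76 (SE; 95% interval -0.74 to 2.68; limma adjusted p = 0.345; exact permutation p = 0.229). The ratio of Lyz2 to Lyz1 was not constant, at 271.8, 206.8, 50.2 and 123.2 in DSS and 55.9, 46.6, 98.4 and 109.8 in DSS + GAA. The nearest profiles to Lyz1 were those of Apol9b, an apolipoprotein L gene (0.50), and Lama3, a laminin chain (0.52), both nearer than Lyz2 (0.71).

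Many markers of macrophages and monocytes were highest or lowest in the same DSS + GAA libraries as Lyz2. Of 28 such genes, all tested, 16 were highest in DSS + GAA replicate 1, the library with the most Lyz2, where 9.17% of all tested genes were highest. In DSS + GAA replicate 5, the library with the least Lyz2, 19 of the 28 were lowest. The share of all tested genes lowest there was not computed, so this count has no background beside it. Csf1r, the macrophage growth factor receptor, stood at 25.4, 27.9, 29.95 and 22.1 TPM in DSS and at 37.9, 26.8, 12.1 and 11 TPM in DSS + GAA. Cd68, a lysosomal macrophage marker, ran from 66.7 TPM in DSS + GAA replicate 1 to 14.6 TPM in replicate 5, and Adgre1, which encodes F4/80, from 21.7 to 5.08 TPM. These 3 genes were chosen after their values were seen, and the part of macrophage RNA in the Lyz2 values was not tested.

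Between the groups, 6 of the 28 macrophage and monocyte genes were lower in DSS + GAA and 0 higher, no larger a share than the 28.2% of all tested genes that were lower. Their median log2 fold change was -0.60, against -0.25 over all tested genes. The genes Itgam (43.0 to 11.7 TPM; log2 fold change -1.83, limma adjusted p = 0.00827), Mrc1 (48.6 to 16.4 TPM; -1.62, limma adjusted p = 0.00927) and Cd163 (16.8 to 6.66 TPM; -1.44, limma adjusted p = 0.0261) led, where Itgam encodes an integrin of myeloid cells and the others scavenging receptors. Plac8, the most abundant of the list and itself expressed in epithelium, averaged 4003 and 5263 TPM and did not pass (limma adjusted p = 0.0846). The summed TPM of the list was 5874 to 7544 in DSS and 6270 to 9314 in DSS + GAA, of which Plac8 made up 64.3%. Without DSS + GAA replicate 1 the lower genes numbered 17 of the 28, a larger share than the 4435 of 14103 over all tested genes. The comparison of shares thus rests on that library. Under each of the other scalings the lower genes of the list numbered 2, where 1308 to 1648 of all 14217 tested genes were lower. They numbered 2 when DSS replicate 1 or, from the other group, replicate 4 was left out, and 3 when DSS replicate 2, 4 or 5 or replicate 5 of DSS + GAA was left out. In these fits 1676 to 3310 of all tested genes were lower. The genes nearest to Lyz2 in profile were Stk32c, a kinase (0.15), and Gpr141, an orphan receptor (0.17). Gpr141 stood at 5.89 to 8.56 TPM in the DSS libraries and at 19.5, 12.97, 4.11 and 3.26 TPM in DSS + GAA.

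Ang4, the bactericidal angiogenin, had the lower mean in DSS + GAA, and its groups overlapped through DSS replicate 5. It stood at 4.18, 7.63 and 4.24 TPM in DSS replicates 1, 2 and 4 and was listed at 0 in DSS replicate 5. In the DSS + GAA libraries it stood at 0.227, 0.862, 3.22 and 1.86 TPM. All 4 of these lay below DSS replicates 1, 2 and 4 and above replicate 5. The log2 fold change was -0.77 ± 0.64 (SE; 95% interval -2.21 to 0.67; limma adjusted p = 0.373; exact permutation p = 0.343). Without DSS replicate 5 it was -1.43 and passed (limma adjusted p = 0.0381), the sole call that any alternative tried gave for the 6 tested genes.

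The profile of Ang4 was nearest to those of 2 cell cycle genes. Cdk1, the mitotic kinase, lay at a root mean square difference of 0.28 and Tpx2, a spindle protein, at 0.28, against an Ang4 spread of 1.03. Cdk1 stood at 17.2, 33.98, 18.1 and 5.09 TPM in DSS and at 3.16, 7.46, 21.0 and 12.3 TPM in DSS + GAA. Like Ang4, it was highest in DSS replicate 2 and, in the DSS + GAA group, in replicate 4. Neither Cdk1 (log2 fold change -0.71, limma adjusted p = 0.381) nor Tpx2 (-0.64, limma adjusted p = 0.352) passed.

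**Figure D3:**
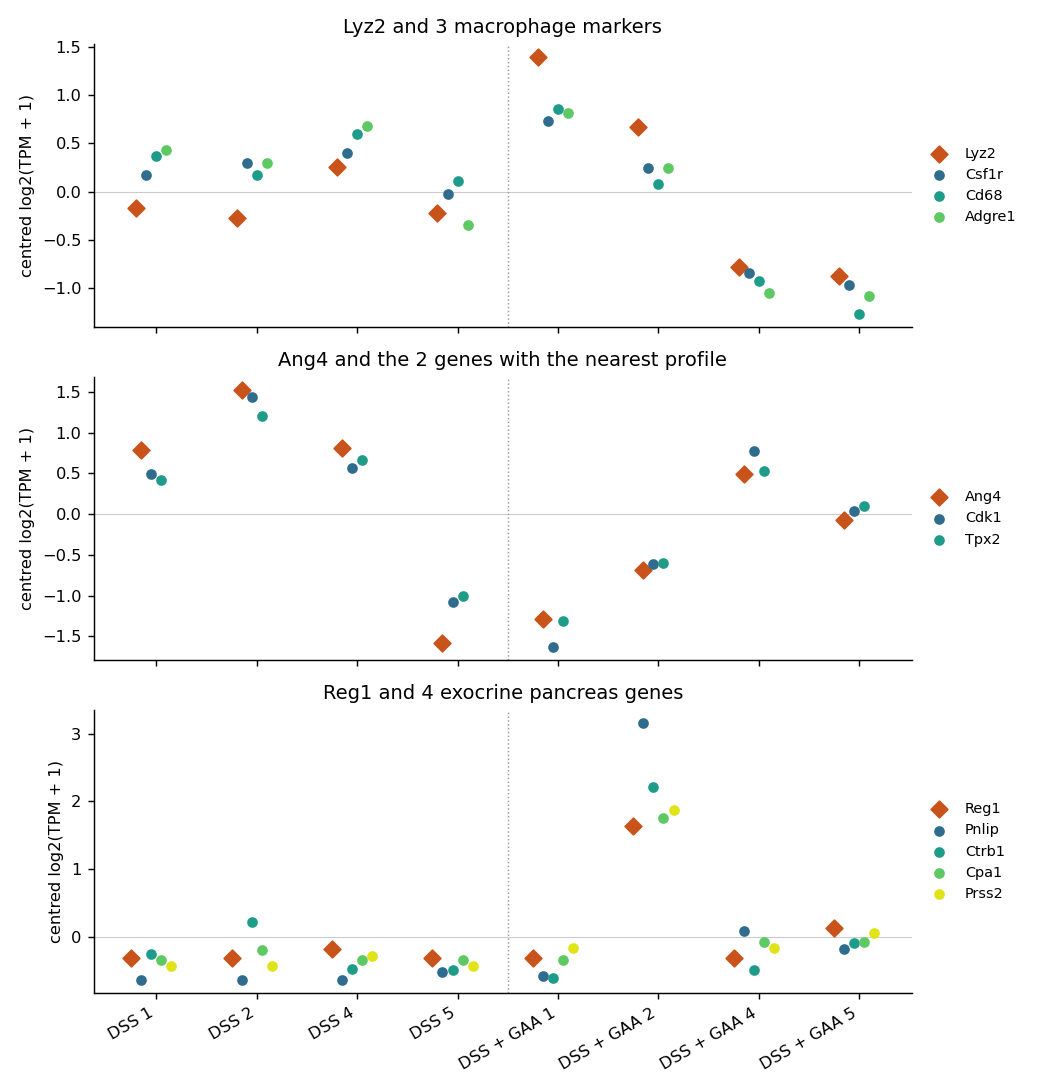
log2(TPM + 1), centred on each gene's mean over the 8 libraries (y axis), by library (x axis; the dotted line parts DSS from DSS + GAA). Top, Lyz2 with 3 macrophage genes, all of them lowest in DSS + GAA replicates 4 and 5; middle, Ang4 with Cdk1 and Tpx2, which share its low points in DSS replicate 5 and DSS + GAA replicate 1; bottom, Reg1 with 4 exocrine pancreas genes, all highest in DSS + GAA replicate 2.

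Reg1 and Reg3a were near 0 in most libraries and were left untested by the filter on low values. Reg1 was listed at 0 in DSS replicates 1, 2 and 5 and at 0.095 TPM in replicate 4. In DSS + GAA it was listed at 0 in replicates 1 and 4, and it stood at 2.87 TPM in replicate 2 and 0.364 TPM in replicate 5 (exact permutation p = 0.429 on the log2 scale). Reg3a stood at 0.212, 0.605, 0.417 and 0.202 TPM in DSS and at 0, 1.67, 0.296 and 0 TPM in DSS + GAA (exact permutation p = 1). The highest value of each gene was in DSS + GAA replicate 2. That library also held the highest values of the REG family genes outside the 8, Reg2 (1.44 TPM, listed at 0 elsewhere) and Reg3d (0.976 TPM), of which neither was tested.

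Most of the low-level exocrine pancreas genes, which encode digestive enzymes, were highest in the same library. Of 19 such genes in the table, 14 were too low to be tested, and 13 of these 14 were highest in DSS + GAA replicate 2, where 6.53% of the 4045 untested genes of the whole table were highest. Their summed level there was 50.3 TPM, against 1.90 to 4.23 TPM in the other 7 libraries. Pnlip, pancreatic lipase, stood at 12.99 TPM there and at 0 to 0.654 TPM elsewhere. Ctrb1, a chymotrypsinogen, stood at 6.78 TPM, Prss2, a trypsinogen, at 3.94 TPM and Cpa1, a carboxypeptidase, at 3.28 TPM in that library. These 4 were chosen after their values were seen, and the part of pancreatic RNA in the Reg1 and Reg3a values was not tested. Of the 5 tested genes of the list 1 was higher, Sycn, a zymogen granule protein (63.0 to 134.5 TPM; log2 fold change 1.13, limma adjusted p = 0.0262), and its call was lost when any of DSS replicates 1 and 2 and DSS + GAA replicates 2 and 5 was left out. The other 4 were Cela1, Cela2a, Clps and Ctrl, and the median of the 5 was 0.75. Of the 5 tested genes 3 were highest in DSS + GAA replicate 2, while Sycn was highest in replicate 5 (192.5 against 128.3 TPM in replicate 2) and Cela1, an elastase, in replicate 4 (79.2 against 46.5 TPM).

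The authors' deposited table gives a different count for the same libraries. For the 6 tested genes its log2 fold change lay near the log2 of the ratio of TPM means. The limma estimate is instead a difference of mean log2(TPM + 1). Over all genes 26.5% have a false discovery rate under 0.05 in the authors' deposited table, and 6 of the 8 genes were among them. The authors' deposited table lists 5 as higher in DSS + GAA: Reg1 (log2 fold change 5.03, false discovery rate 4.74e-13), Lyz1 (1.27, 4.02e-06), Reg3g (1.23, 1.08e-05), Lyz2 (0.50, 0.0254) and Reg3b (0.48, 0.0363). Ang4 is listed as lower (-1.38, 0.00523), and Reg4 (0.27, 0.178) and Reg3a (0.45, 0.278) are not called in the authors' deposited table. The groups of all 6 called genes overlapped on the deposited TPM, as did those of 2119 of the 4847 genes called there (43.7%). The sources used here do not give the test that the authors applied, nor whether it was run on TPM.

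**Figure D4:**
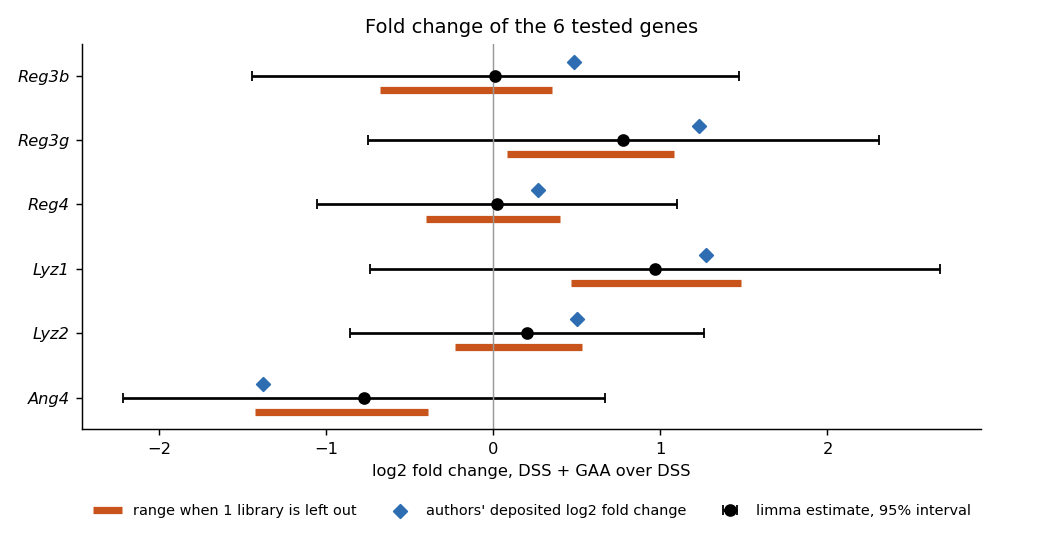
log2 fold change of DSS + GAA over DSS (x axis) for the 6 tested genes: limma estimate with 95% interval (black), range of the estimates when 1 library is left out (orange bar) and the authors' deposited log2 fold change (blue diamond). Every 95% interval spans 0, and the leave-one-out range of Reg3b, Reg4 and Lyz2 also spans 0. The deposited values lie near the log2 of the ratio of TPM means, a measure unlike the limma estimate.

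Pooled over both groups, the spread between libraries was wider for the 6 tested genes than for nearly all others. The within-group SD of log2(TPM + 1), pooled over both groups, was 1.31 for Lyz1, 1.18 for Reg3g, 1.13 for Reg3b, 1.103 for Ang4, 0.82 for Reg4 and 0.81 for Lyz2, against a median of 0.26 over all tested genes. These values lay at the 97.7th (Lyz2) to 99.9th (Lyz1) percentile of the tested genes, which were not matched for level. For 5 of the 6 the DSS + GAA libraries were the more spread, for example Lyz2 with 1.12 against 0.24 and Reg4 with 1.08 against 0.44, whereas Ang4 had 0.77 against 1.36. Reg3b and Reg3g vary together, and the lysozymes share their order of DSS + GAA libraries, so the 5 genes are not independent. The medians over all tested genes were 0.26 in DSS + GAA and 0.21 in DSS, so Lyz2 lay near the median in DSS. The highest DSS + GAA value was 14.2 times the lowest for Ang4, 9.48 times for Lyz1, 8.77 times for Reg3b, 7.87 times for Reg3g, 5.45 times for Reg4 and 4.83 times for Lyz2. The ratio of Ang4 rests on a lowest value of 0.227 TPM, near 0, and its DSS + GAA SD on log2(TPM + 1) was the smallest of the 6. Different DSS + GAA libraries were the highest for different genes: replicate 4 for Reg3b, Reg3g and Ang4, replicate 1 for both lysozymes and replicate 5 for Reg4.

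**Figure D5:**
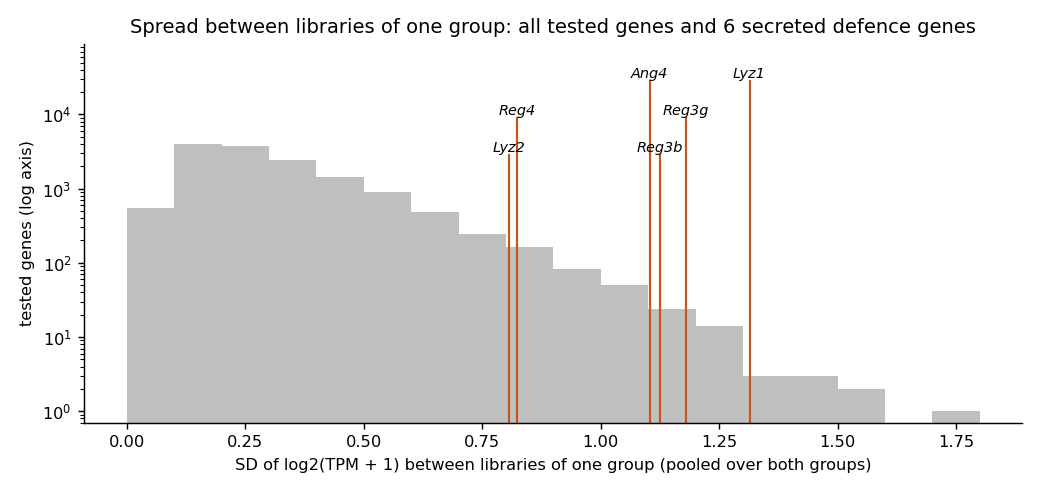
Number of tested genes (y axis, log) by the SD of log2(TPM + 1) between libraries of a group, pooled over both groups (x axis), with orange lines at the 6 tested genes. All 6 lie in the right tail, from 0.81 (Lyz2) to 1.31 (Lyz1), against a median of 0.26.

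Some genes of the signals known to induce REG3 lectins were lower in DSS + GAA and some higher. Of 32 tested ligands, receptors and transducers of the IL-22, IL-17 and MyD88 routes, 13 were lower, 5 higher (Hnf4a, Ifng, Il17rc, Ticam1 and Vdr) and 14 neither, with a median of -0.22; over all tested genes 28.2% were lower and 5.96% higher. Il6, an inflammatory cytokine that signals through STAT3, fell from 61.8 to 1.91 TPM (log2 fold change -4.19, limma adjusted p = 0.00510). Il17rc, a subunit of the IL-17 receptor, rose from 38.5 to 85.5 TPM (1.14, limma adjusted p = 0.00460), and Ifng, interferon gamma, rose from 1.21 to 11.5 TPM (2.34, limma adjusted p = 0.00554). Il18, the most abundant of the list, averaged 534.6 and 569 TPM (limma adjusted p = 0.958). The lower genes numbered 8 under trimmed mean scaling (7 higher), 6 under median centring (7 higher) and 8 without DSS replicate 1.

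Il22, Stat3 and Socs3 were examined library by library and were chosen after their values were seen. Il22, which encodes the cytokine upstream of REG3, stood at 25.8, 26.6, 23.6 and 33.1 TPM in DSS and at 17.5, 14.2, 5.51 and 12.5 TPM in DSS + GAA (limma adjusted p = 0.0173). Its lowest value fell on DSS + GAA replicate 4, the library in which Reg3b and Reg3g were highest. This is a single library, and a link of Il22 to Reg3b or Reg3g was not tested. Stat3 ranged from 123.4 to 150 TPM in DSS libraries and from 71.95 to 97.7 TPM in the others (limma adjusted p = 0.00810), and Socs3, a feedback target of STAT3, at 183 to 254.4 and 94.3 to 174.6 TPM (limma adjusted p = 0.00981). For Il22ra1, which encodes a chain of the IL-22 receptor and was also chosen so, the log2 fold change was 0.24 (limma adjusted p = 0.483). Under median centring the limma adjusted p was 0.0729 for Il22, 0.0664 for Stat3 and 0.0508 for Socs3. Trimmed mean scaling ended the call of Il22 (limma adjusted p = 0.0674) and Stat3 (0.0557), and so did leaving out DSS replicate 1 for Il22 (0.0521).

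Among 32 other tested antimicrobial and luminal defence genes, 7 were higher, 7 lower and 18 neither (over all tested genes 5.96% higher and 28.2% lower). Their median log2 fold change was 0.36. Those lower were Lcn2, S100a8, S100a9, Camp, Defb1, Saa2 and Saa3, of which Lcn2, S100a8, S100a9 and Camp also stand in the neutrophil list. S100a9, a calprotectin subunit, fell from 2074 to 93.8 TPM (log2 fold change -4.52, limma adjusted p = 0.00425), S100a8, its partner, from 1616 to 104.3 TPM (-3.82, limma adjusted p = 0.00425), and Lcn2, a siderophore-binding lipocalin, from 422 to 23.6 TPM (-3.93, limma adjusted p = 0.00460). Those higher were Ccl28, Ccl6, Dmbt1, Mptx1, Pglyrp2, Pigr and Wfdc2. The most abundant, Lypd8, which binds flagellated bacteria, averaged 24390 and 33520 TPM (limma adjusted p = 0.112). The higher genes numbered 2 when DSS replicate 1 or either of DSS + GAA replicates 2 and 4 was left out, 3 without DSS replicate 2, and 4 with DSS replicate 4 or replicate 5 of DSS + GAA left out. The lower genes numbered 4 without DSS replicate 1, 2 or 5.

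Of 5 tested relatives of Ang4 in the angiogenin and RNase A family, 2 were lower and 0 higher (over all tested genes 28.2% lower and 5.96% higher). Their median log2 fold change was -0.15. Rnase4, a ribonuclease that shares its locus with Ang, fell from 260.2 to 126.9 TPM (log2 fold change -1.03, limma adjusted p = 0.00531). Ang stood at 66.1, 46.4, 59.4 and 45.4 TPM in DSS and at 36.7, 33.8, 30.9 and 36.0 TPM in DSS + GAA, without overlap (-0.63, limma adjusted p = 0.0123), and it lost its call under trimmed mean scaling (limma adjusted p = 0.0555) and median centring (0.0707). Rnase6 averaged 3.85 and 6.92 TPM (limma adjusted p = 0.190). The 5 lysozyme-like genes in the table other than Lyz1 and Lyz2 were below 1 TPM in all libraries.

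The cell types known to make these proteins were checked through their markers. Over all tested genes 5.96% were higher and 28.2% lower, and the counts of each marker list stand beside these shares. Of 27 Paneth and deep crypt secretory genes listed, 13 had a row in the table and 10 of these were tested, and 3 were higher (Gfi1, Mptx1 and Spink4) and 1 lower (Kit), with a median of -0.03. The defensin Defa21 was listed at 0 in 7 libraries and stood at 0.417 TPM in the other one, and Mptx2 was below 1 TPM in all. Both were named because they were at or near 0, and of the 13 genes only these 2 were below 1 TPM throughout. Other Paneth markers of the list were not: Mmp7 stood at 0.301 to 3.77 TPM and Pla2g2a at 53.1 to 278.8 TPM, and neither was called. Mptx1, a pentraxin, rose from 314.5 to 1362 TPM (log2 fold change 2.23, limma adjusted p = 0.00554). Gfi1, a secretory lineage factor, rose from 2.00 to 5.43 TPM (1.17, limma adjusted p = 0.0269), and Kit, a receptor of deep crypt secretory cells, fell from 26.8 to 14.7 TPM (-0.78, limma adjusted p = 0.0226). Their summed TPM was 797 to 1652 in DSS and 2081 to 3023 in DSS + GAA, 47.3% of it Mptx1. The higher genes numbered 1 when DSS replicate 1, DSS replicate 2 or replicate 2 of DSS + GAA was left out. Among them, Gfi1 lost its call in each of these cases (limma adjusted p = 0.0868, 0.0574 and 0.0742). The call of Kit was lost under all 3 scalings, and when any of DSS replicates 1 and 4 and DSS + GAA replicates 2 and 4 was left out.

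Goblet cell genes were higher in part. Of 23 tested 9 were higher and 1, Ccl9, was lower (over all tested genes 5.96% higher and 28.2% lower), with a median of 0.60. Spink4, 1 of the 9, also stands in the Paneth and deep crypt list. The summed TPM was 11060 to 25260 in DSS and 19080 to 31790 in DSS + GAA. Agr2, a disulfide isomerase needed for mucin, rose from 1464 to 3173 TPM (log2 fold change 1.15, limma adjusted p = 0.00743), and Atoh1, the secretory lineage factor, from 13.8 to 39.9 TPM (1.66, limma adjusted p = 0.0133). Foxa3, a goblet cell transcription factor, rose from 10.9 to 21.4 TPM (limma adjusted p = 0.0104), and Zg16, the most abundant, averaged 7142 and 9189 TPM (limma adjusted p = 0.488). The higher genes numbered 4 when DSS replicate 1 or, from the other group, replicate 2 was left out.

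The remaining marker lists were epithelial and neutrophil. Of 15 pan-epithelial genes 4 were higher (Cdh1, Cldn3, Krt8 and Vil1) and 0 lower (summed TPM 16400 to 19970 in DSS and 24720 to 26750 in DSS + GAA), and the higher genes numbered 7 under trimmed mean scaling, 8 under median centring, 2 under quantile normalization and 2 with the replicate block. They numbered 7, 1 and 2 when DSS + GAA replicates 1, 2 and 4 were left out in turn, and 2 without DSS replicate 1. Vil1, which encodes villin, rose from 429 to 992 TPM (log2 fold change 1.23, limma adjusted p = 0.00554), and Lgals4, a galectin and the most abundant of the list, averaged 5023 and 7068 TPM (limma adjusted p = 0.0502). Of 22 tested neutrophil genes 18 were lower and 0 higher (summed TPM 5181 to 11490 in DSS and 1460 to 4569 in DSS + GAA). Retnlg fell from 313.9 to 8.16 TPM (log2 fold change -5.10, limma adjusted p = 0.00425), and Ly6g, the most abundant and also in the large intestinal list, averaged 3225 and 2238 TPM (limma adjusted p = 0.195). Of 18 large intestinal genes 4 were higher (Aqp8, Hoxa13, Slc20a1 and Slc26a3) and 1 lower (Car1), and the higher genes numbered 7 under trimmed mean scaling and 8 under median centring, and 1 or 2 when any of the DSS replicates 1, 2 and 4 and DSS + GAA replicates 2, 4 and 5 was left out. Of the small intestinal enterocyte genes, Fabp1, Apoa4, Lct and Sis, which define that cell, were below 1 TPM in all libraries. Others of this list were far above 1 TPM: Fabp6, an ileal bile acid binding protein, rose from 10.2 to 211.8 TPM (log2 fold change 4.13, limma adjusted p = 0.00305) and Apob, an apolipoprotein, from 16.9 to 86.1 TPM (2.31, limma adjusted p = 0.00531). Slc10a2, the ileal bile acid transporter, fell from 135.4 to 24.6 TPM (-2.39, limma adjusted p = 0.00510), and Clca4b, the most abundant, averaged 3985 and 5525 TPM (limma adjusted p = 0.246). The part of these shifts in the 8 genes was not tested.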

How the data were processed

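RNA of mouse colon was sequenced in 8 libraries, 4 per group. The authors deposited TPM per gene, and beside it their own log2 fold change, p-value and adjusted p-value (false discovery rate). Columns were matched to samples by name. The submitters' processing notes name build mm10 and the tools edgeR, featureCounts and Subread, HISAT2 and Bowtie2, and GATK, SAMtools and Trimmomatic, without roles. Per the labels' protocols, messenger RNA was selected on oligo(dT). The sources used here do not give whether strand was kept, so reads of opposite-strand genes cannot be told apart.

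TPM keeps no depth, so depth is unknown and no interval on counts was possible. Genes that reached 1 TPM in 4 or more libraries were tested on log2(TPM + 1), a scale that understates changes of low genes, with limma (3.58.1; R 4.3.3, statmod 1.5.0; no term but group, trend and robust empirical Bayes, two-sided, Benjamini-Hochberg over 14217 genes, threshold 0.05), after the code was tested on simulated data. Exact permutation tests used the 70 assignments. Sequences came from GENCODE vM21 on GRCm38 and RefSeq promoters (GRCm38.p6, all 8 genes matched), handled in Python 3.11.15 with Biopython 1.88. Alternatives were pseudocounts of 0.1 and 5, filters, scalings, fit settings, a replicate block and leaving out each library.

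The genes and the 13 lists were chosen with earlier results of these data known. The naming rule takes all 8 genes, from each list the 3 tested genes with the smallest p and the most abundant, and the 2 nearest profiles per tested gene; other names were chosen after their values were seen. Reg1 and Reg3a failed the filter. The count of calls in the small intestinal list is not reported here.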

Additional observations from a re-analysis of the deposited data

Results flagged for a closer look

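Of the 16 sets of 4 libraries (8 genes in 2 groups), 5 held a library set apart by Dixon's test on TPM. Its gap to its nearest neighbour took up more of the range than the critical value allows. Chance gives about 1 in 20 only for normally distributed values, which TPM need not be. The flags were not computed on log2(TPM + 1), so no excess over chance is read from them. For 1 of the 5, Reg1 in DSS, the other 3 libraries were listed at 0, so any value above 0 would have been picked out, and it carries no weight beside the other 4. Reg3b at 258.8 TPM and Reg3g at 110.7 TPM in DSS + GAA replicate 4 stood far above the other 3 libraries of the group. Reg1 stood out at 2.87 TPM in DSS + GAA replicate 2, and at 0.095 TPM in DSS replicate 4, where the other 3 DSS libraries were listed at 0. Lyz2 stood out at 786 TPM in DSS replicate 4, against 545 to 582.2 TPM in the other DSS libraries. These sets share libraries, and Reg3b and Reg3g vary together, so the flags are not independent.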

How the results depend on the processing

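The tested genes gave no call under any pseudocount, filter, scaling, weighting or replicate block (Lyz1 and Ang4 had no value under the filter of 5 TPM), or when any library other than DSS replicate 5 was left out. The sign was less stable. The log2 fold change was -0.35 for Reg3b and -0.15 for Reg4 with array quality weights. When single libraries were left out it ran from -0.68 to 0.35 for Reg3b, from -0.40 to 0.40 for Reg4, from -0.23 to 0.53 for Lyz2 and from -1.43 to -0.39 for Ang4, so that 0 to 1 of the genes were lower. The log2 difference of mean Reg1 was 0.57 with a pseudocount of 1 TPM and 1.54 with 0.1 TPM, by construction of the scale. Over all tested genes, 1890 higher and 1648 lower genes were called under trimmed mean scaling, 1677 and 1601 under quantile normalization, and 2165 and 1308 under median centring. Leaving out single libraries gave 361 to 1277 higher and 1676 to 4435 lower genes. Il18 turned to 0.25 under trimmed mean scaling, 0.28 under median centring and 0.034 with array quality weights, and it ran from -0.29 to 0.26 when single libraries were left out. Causes of these shifts were not tested. Same-numbered libraries correlated at 0.18, -0.11, 0.15 and -0.03 in their deviations from the group means. Differently numbered libraries ran from -0.167 to 0.146. These values do not show a pairing by number and cannot exclude one. With a replicate block 679 higher and 3340 lower genes were called, and Reg3g stayed at 0.78 (limma adjusted p = 0.136). The block ended the call of Gfi1 (limma adjusted p = 0.0585). Sequencing depth is unknown, which limits what values of Reg1, Reg3a and Ang4 near 0 can show.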

Other observations

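The ratio of Reg3b to Reg3g separated the groups, although neither gene did. In TPM it was 4.56, 3.45, 3.37 and 6.19 in DSS replicates 1, 2, 4 and 5 and 2.78, 2.62, 2.34 and 2.02 in the DSS + GAA libraries. Every DSS library thus held relatively more Reg3b. The mean log2 ratio with a pseudocount of 1 TPM was 2.00 ± 0.36 in DSS and 1.23 ± 0.20 in DSS + GAA (SD, n = 4 per group), a difference of -0.77. An exact permutation test (two-sided) gave p = 0.0286, the smallest that the 70 assignments can give, and the Benjamini-Hochberg value over the 15 pairs of tested genes was 0.429. A lone pair at this smallest p cannot reach a lower adjusted value, so the adjusted test could not decide. This was the 1 pair of the 15 whose groups did not overlap, and it was looked at after its values were seen. With a pseudocount of 0.1 the difference was -0.81, with 5 it was -0.63, and with none it was -0.81. It ran from -0.86 to -0.62 when single libraries were left out, and the exact permutation p was 0.0571 without DSS + GAA replicate 5. Fewer assignments exist with a library left out, and the groups still did not overlap there.

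Of 3 other secreted defence genes, chosen after their values were seen, 2 were tested and did not pass. Retnlb, a resistin-like goblet cell product, ranged over 249.6 to 839 TPM in DSS libraries and 306.7 to 476 TPM in the others (limma adjusted p = 0.786). Pla2g2a, a bactericidal phospholipase, ranged over 117.7 to 178 TPM in DSS libraries and 53.1 to 278.8 TPM in the others (limma adjusted p = 0.897). Pla2g2a was lowest in DSS + GAA replicate 1 and highest in replicate 5, and the 4 libraries ranked as they did for Reg4. Itln1, an intelectin of Paneth and goblet cells, was at 0.153 to 1.09 TPM in all libraries and was not tested.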
